A study of Mus musculus with 14 samples.

Results

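Of the 14 heart libraries in the series, 6 were taken 1 day after irradiation and are described here across all genes. They were chosen by their labels alone and comprise 3 irradiated hearts (IRR_1d) and 3 control hearts (Control_1d). The mice were male C57BL/6J, all of genotype WT, and 8 weeks old when the irradiated mice received 30 Gy of 60Co gamma rays to the anterior chest at 0.97 Gy/min. The dose was given locally under pentobarbital anaesthesia with the rest of the body under lead, and whether the controls were anaesthetised, and at what hour hearts were collected, is not given in the sources used here. The question was what the heart transcribes within a day of a single local dose. The other 8 libraries, 4 irradiated and 4 control hearts at 6 weeks, entered the fit and are cited only where an effect at 1 day is set against its later value.

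Ionizing radiation breaks DNA, and the damage kinases ATM and ATR then stabilise the transcription factor p53. p53 binds a palindromic element near its target genes and switches on inhibitors of the cell cycle, proteins of the death pathway, enzymes that limit oxidative stress and its own inhibitor Mdm2. Most adult cardiomyocytes no longer divide, whereas the endothelial cells, fibroblasts and leukocytes between them can, and lymphocytes are among the cells most easily killed by radiation.

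The 6 libraries held 13682599 to 16259901 counts, and cardiomyocyte markers were abundant in all of them, at a summed 26700 to 45300 CPM (counts relative to library size, scaled by TMM) in Control_1d and 16700 to 36000 CPM in IRR_1d. Control_1d replicate 1 stood apart by missing values. Among genes at 2 to 5 CPM in the other 5 libraries, 35% were at 0 counts in it, against 0.314 to 1.86% in the others. IRR_1d replicate 3 held the most RNA of fat and atrium. Its 12 markers of white fat summed to 4570 CPM against 167 to 415 CPM in the other libraries, and its 10 atrial markers to 2570 CPM against 125 to 766 CPM. Ucp1, the uncoupling protein of brown fat, was at 222 CPM in that library and at 0 in the other 5. Cartilage markers were also highest there, at 90.6 CPM against 2.11 to 22.6 CPM. Smaller amounts stood out elsewhere, with 8 liver markers at 74.4 CPM in Control_1d replicate 1 against 3.16 to 28.7 CPM, and Myh4, a myosin of fast skeletal muscle, at 10.9 CPM in IRR_1d replicate 1 against at most 0.33 CPM. White fat markers summed to 415 CPM in Control_1d replicate 1, 179 CPM of it from Car3, against 178 and 211 CPM in the other controls. Their median log2 fold change was 2.57 with all libraries and -0.60 without IRR_1d replicate 3. Without both IRR_1d replicate 3 and Control_1d replicate 1 it was 2.17. B cell markers were highest in Control_1d replicate 1, at 326 CPM against 57.2 to 89.9 CPM, and erythroid markers in Control_1d replicate 3, at 34400 CPM against 3220 to 10400 CPM. For many gene lists and for the counts of genes, values are also given without Control_1d replicate 1 or IRR_1d replicate 3. Most single genes are given with all libraries only, and the part of the other markers was not tested. In bulk RNA, fewer cells of a type and less RNA per cell cannot be told apart.

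**Figure D1:**
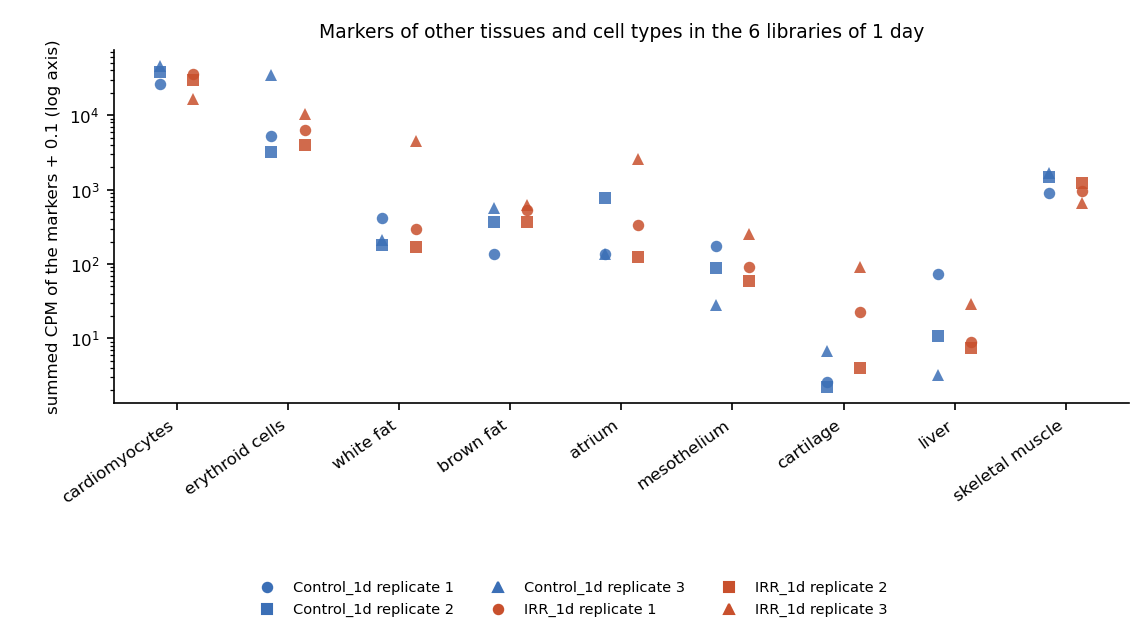
Summed TMM-scaled CPM of the markers of 9 tissues or cell types (x axis) in each of the 6 libraries of 1 day, with 0.1 added and a log y axis; blue marks are Control_1d, red marks IRR_1d, and the shape gives the replicate. IRR_1d replicate 3 is the highest library for white fat (4570 CPM), atrium (2570 CPM) and cartilage (90.6 CPM), and the lowest for cardiomyocytes (16700 CPM).

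At 1 day 4 genes rose, and they were Zfp365, Sesn2, Dcxr and Ephx1, all members of the list of p53 targets. Ephx1 is also on the list of antioxidant and NRF2 targets, where it was the only 1 of 28 past the looser limit defined below (median log2 fold change 0.29), and Sesn2 on that of ATF4 and one-carbon genes, where 2 of 21 passed (median 0.38, and -0.01 without Control_1d replicate 1 and IRR_1d replicate 3). Genes counted as differentially expressed (DEGs) where edgeR's quasi-likelihood test, adjusted after Benjamini and Hochberg, gave a p under 0.05 and the fold was above 2 or below 0.5, and the 4 DEGs are 0.0249% of the 16034 genes tested. No gene was called lower (0%). At an unadjusted edgeR p under 0.05 with the same fold limits, called the looser limit below, 250 genes were higher (1.56%) and 108 lower (0.674%) in IRR_1d, and 465 genes (2.9%) had such a p at any fold.

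Zfp365, a zinc finger gene that p53 switches on and that guards genome stability, lies at chr10:67886103-67912662 (mm10). It was at 1.82, 0.906 and 1.54 CPM in Control_1d and at 25.9, 34.9 and 54.2 CPM in IRR_1d. The 2 groups lay far apart, with a 26.6-fold difference (log2 fold change 4.73, SE 0.544, edgeR adjusted p = 0.0067). Sesn2 encodes sestrin 2, a stress protein that restrains mTORC1, at chr4:132492032-132510501. It was at 2.13, 3.73 and 7.32 CPM in the controls and at 40.6, 30.6 and 46.7 CPM after irradiation, 8.94-fold higher (log2 3.16, SE 0.428, edgeR adjusted p = 0.0235). Dcxr, dicarbonyl and L-xylulose reductase at chr11:120725399-120727281, was at 3.82, 5.94 and 5.32 CPM against 26.7, 26.7 and 38.2 CPM (log2 2.60, SE 0.375, edgeR adjusted p = 0.0316). Its 3 control values lay within a narrow band, as did its irradiated values. Ephx1, the microsomal epoxide hydrolase at chr1:180976210-181020904, was at 36.4, 26.0 and 41.8 CPM against 210, 148 and 244 CPM (log2 2.53, SE 0.377, edgeR adjusted p = 0.0349). When each of the 6 libraries was left out in turn, the log2 fold change of Zfp365 stayed between 4.40 and 4.96 and it was called in 4 of the 6 fits. Sesn2 was called in 1 of the 6 fits and Dcxr and Ephx1 in none, with log2 fold changes of 2.41 to 2.75 for Dcxr and 2.37 to 2.73 for Ephx1.

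Beyond the DEGs, the list of p53 targets was higher in IRR_1d as a group. Of its 35 tested members, 17 passed the looser limit upward and none downward, against 1.56% and 0.674% of all genes. In 22 of them all 3 irradiated hearts lay above all 3 controls, and in none below, where 6.52% of all genes lay wholly above and 4.14% wholly below. The median log2 fold change of the list was 1.73, against 0.06 over all genes tested. It was 1.67 without IRR_1d replicate 3 and 1.53 without Control_1d replicate 1, with 16 and 18 members past the looser limit upward and, without the control, 1 downward. Of the 22 members, 6 were at 0 counts in Control_1d replicate 1.

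Among inhibitors of the cell cycle, Cdkn1a (p21, which blocks cyclin-dependent kinases) was at 31.6, 58.0 and 23.2 CPM in Control_1d and at 176, 183 and 255 CPM in IRR_1d. The groups did not overlap and the ratio was 5.44-fold, but edgeR's adjusted p was 0.187. Gtse1, which regulates p53 in the G2 phase, was at 0, 0 and 1.46 CPM against 13.8, 12.1 and 9.91 CPM. Ccng1, another classical p53 target, was already at 2350, 2440 and 1300 CPM in the controls and at 1590, 2390 and 1620 CPM in IRR_1d, so its groups overlapped (log2 -0.12, SE 0.521).

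Of the members that act in cell death, Bax, which opens the outer mitochondrial membrane, was at 5.14, 5.03 and 14.6 CPM against 48.1, 33.7 and 28.3 CPM (log2 2.15, SE 0.424, edgeR adjusted p = 0.31). The BH3-only gene Pmaip1 (Noxa) was at 1.5, 0 and 0.77 CPM against 4.25, 5.32 and 5.15 CPM. The other BH3-only gene, Bbc3 (Puma), was at 0, 3.42 and 4.55 CPM against 13, 9.96 and 11.4 CPM. All 3 genes stood apart between the groups. The death receptor Eda2r on the X chromosome was at 3.13, 16.9 and 10.8 CPM against 62.5, 100 and 70.7 CPM. Phlda3, an inhibitor of AKT, was at 11.5, 10.6 and 13.9 CPM against 70.0, 56.5 and 110 CPM. Trp53inp1 was at 51.5, 32.3 and 23.9 CPM against 162, 223 and 296 CPM, and the exonuclease gene Aen at 5.2, 17.1 and 24.8 CPM against 56.2, 36.1 and 40.4 CPM. The death receptor Fas did not follow them, with 30.7, 14.9 and 14.1 CPM in the controls and 23.1, 18.7 and 21.6 CPM in IRR_1d (log2 0.09, SE 0.362).

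Gdf15, a secreted stress cytokine, was at 0, 0.906 and 1.16 CPM in Control_1d and at 12.8, 9.27 and 14.5 CPM in IRR_1d (log2 4.16, SE 0.948, edgeR adjusted p = 0.551). Zmat3, a zinc finger protein that binds RNA, was at 13.7, 9.46 and 14.3 CPM against 34.0, 45.4 and 44.9 CPM. The ubiquitin ligase Mdm2, which marks p53 for degradation, was at 97.0, 93.0 and 64.8 CPM against 116, 158 and 131 CPM, with groups apart but a log2 difference of only 0.67 (SE 0.256). The excision repair genes of the list showed little difference. Xpc was at 12.4, 14.4 and 17.9 CPM against 15, 15.5 and 15.9 CPM, and Ddb2 at 5.45, 2.42 and 2.16 CPM against 3.87, 2.40 and 2.91 CPM. A wider list of 30 genes of DNA damage sensing and repair had a median of -0.16. At the looser limit none was higher and 1 lower, against 1.56% and 0.674% of all genes. Rprm, a p53 target that was too low to be tested, had 0 counts in each control and 6, 7 and 11 counts in the irradiated hearts.

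**Figure D2:**
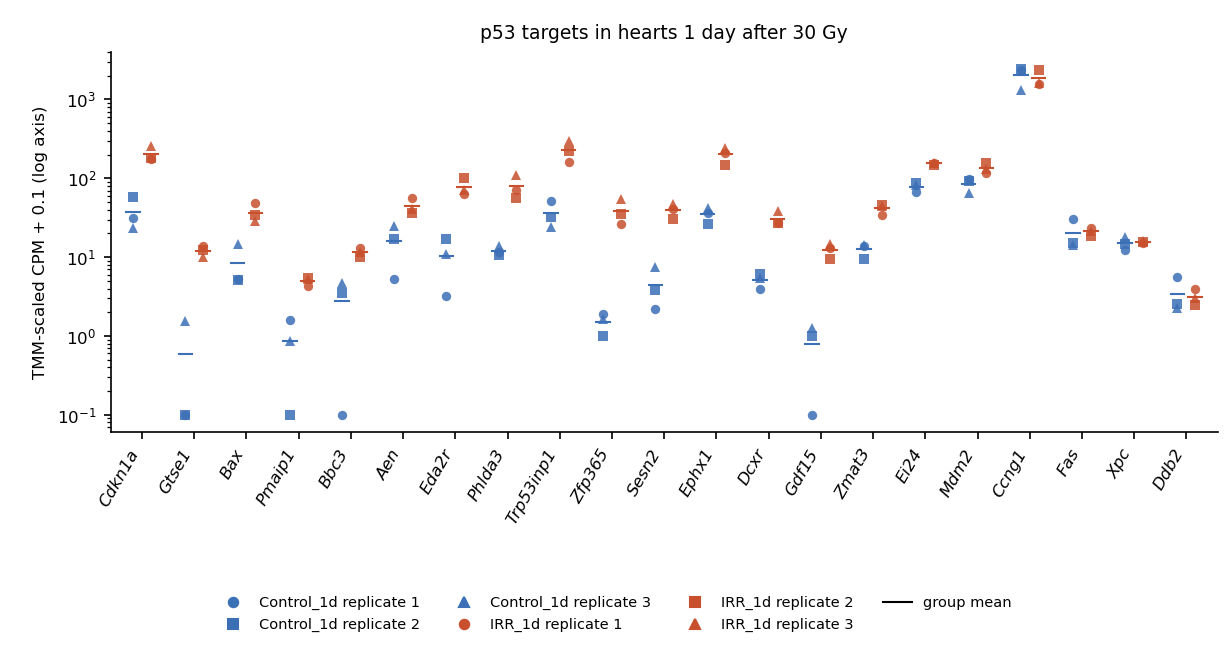
TMM-scaled CPM plus 0.1 (log y axis) of 21 p53 targets in each library; blue marks are the 3 Control_1d hearts, red marks the 3 IRR_1d hearts, shapes give the replicate and short lines the group means. From Cdkn1a to Mdm2 every irradiated heart lies above every control, while Ccng1, Fas, Xpc and Ddb2 overlap.

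The promoters of the p53 targets were read for the p53 consensus, since 22 members stood apart in the same direction. The window ran from 250 bases before to 50 bases after each RefSeq start (GRCm38.p6), and the search took the consensus without a spacer and with at most 1 mismatch outside the core C and G of each part. It found the element in 3 of the 28 listed genes with a window (10.7%) and in 0.0814% of all 27025 genes with one. They are shown with 15 flanking bases, or for Gtse1 alone, and capitals mark the match.
Cdkn1a: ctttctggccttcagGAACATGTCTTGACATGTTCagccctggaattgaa
Ccng1: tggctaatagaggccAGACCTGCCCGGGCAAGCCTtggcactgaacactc
Gtse1: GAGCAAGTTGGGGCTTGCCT
The match of Cdkn1a lay at -51 to -32 from the start within chr17:29090729-29091028, and that of Ccng1 at -195 to -176 within chr11:40755237-40755536 on the minus strand. The match of Gtse1 lay at -1 to 18 within chr15:85859696-85859995. Of these genes, Cdkn1a and Gtse1 stood apart between the groups and Ccng1 did not. Elements farther from the start were not searched.

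Other genes with the smallest p among those that stood apart upward have roles outside the p53 list. Gas6, the ligand of the TAM receptors that macrophages use to clear dying cells, was at 103, 131 and 183 CPM against 615, 402 and 945 CPM (4.70-fold, edgeR adjusted p = 0.168). Mmp2, a matrix metalloproteinase, was at 71.4, 64.5 and 108 CPM against 290, 234 and 394 CPM (3.76-fold, edgeR adjusted p = 0.365). In both genes IRR_1d replicates 1 and 2 exceeded the highest control by more than the controls differed among themselves. Rnf169, a ubiquitin reader at DNA breaks, was at 27.5, 18.1 and 21.3 CPM against 50.9, 57.2 and 41.6 CPM. Gne, which starts sialic acid synthesis, was at 10.8, 21.2 and 21.8 CPM against 47.6, 42.8 and 46.5 CPM. Celf5, an RNA-binding protein, had 0 counts in every control and 7.35, 3.18 and 5.95 CPM in IRR_1d. Serpina3n, an acute phase serine protease inhibitor, was at 16.6, 20.2 and 12.6 CPM against 61.6, 58.6 and 355 CPM, and Pamr1 at 1.07, 3.62 and 2.54 CPM against 9.99, 6.87 and 36.2 CPM, so that their means were drawn up by replicate 3. Leaving out single libraries gave log2 fold changes of 1.87 to 3.68 for Serpina3n and 1.81 to 3.3 for Pamr1.

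IRR_1d replicate 3 weighed on the upward side as a whole. Of the 250 genes higher at the looser limit, 197 (78.8%) had their highest value in it. Without that library 87 genes were higher, 78 of them among the 250 (31.2% of the 250 and 89.7% of the 87). On the other side, 79 of the 108 lower genes (73.1%) had their highest value in Control_1d replicate 1, and without that library 55 were lower, 35 of them among the 108 (32.4% of the 108 and 63.6% of the 55). Other libraries moved these counts too, with 45 lower genes without IRR_1d replicate 1, 37 of them among the 108, and 637 higher and 163 lower genes without Control_1d replicate 3. Without both Control_1d replicate 1 and IRR_1d replicate 3, 64 genes were higher and 42 lower.

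**Figure D3:**
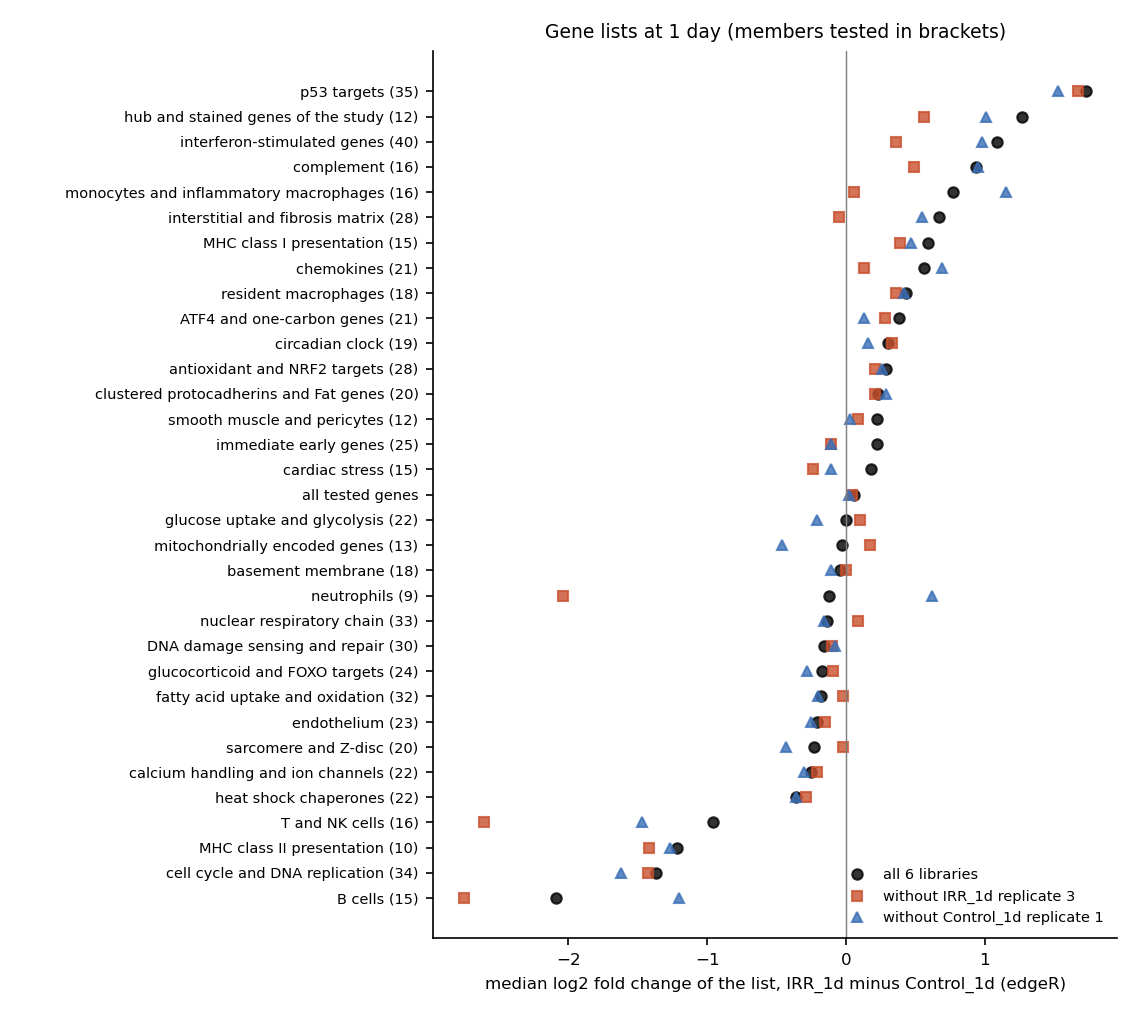
Median log2 fold change (x axis, IRR_1d minus Control_1d, edgeR) of 32 gene lists and of all tested genes (y axis), with all 6 libraries (black), without IRR_1d replicate 3 (red) and without Control_1d replicate 1 (blue). p53 targets keep a median of 1.53 or more and MHC class II genes one of -1.22 or less in all 3 fits, whereas the median of interferon-stimulated genes drops from 1.09 to 0.36 and that of matrix genes from 0.67 to -0.05 without IRR_1d replicate 3.

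Interferon-stimulated genes, the antiviral genes that type I and II interferons switch on, were higher in IRR_1d mostly through replicate 3. Of 40 tested members, 11 passed the looser limit upward and 1 downward, against 1.56% and 0.674% of all genes, and 37 had their highest value in that library. For this list and those below, the share of all tested genes highest in that library was not counted. The median log2 fold change of the list was 1.09 with IRR_1d replicate 3 and 0.36 without it, when 3 members passed upward and 2 downward. With all libraries 16 members lay wholly above the controls and 1 below, against 6.52% and 4.14% of all genes. Ifit1, which binds viral RNA caps, was at 7.96, 13.5 and 18.2 CPM in Control_1d and at 32.8, 33.4 and 217 CPM in IRR_1d (log2 2.84, SE 0.719, edgeR adjusted p = 0.764). Leaving out single libraries gave it a log2 fold change of 1.33 to 3.25. Ifit3, its partner, was at 23.4, 10.3 and 18.4 CPM against 40.6, 34.0 and 232 CPM. The guanylate-binding gene Gbp2 was at 14.5, 22.3 and 28.0 CPM against 42.0, 38.6 and 115 CPM, and Rtp4 at 13.7, 12.1 and 12.1 CPM against 20.7, 28.1 and 54.2 CPM. In these 4 genes all the irradiated hearts were above the controls, and replicate 3 was far above the other two. Isg20, an exonuclease of the same list, went the other way, with 37.3, 16.3 and 41.8 CPM against 7.73, 3.09 and 14.8 CPM (log2 -1.89, SE 0.876).

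The response element of these genes, read on both strands as GAAA and GAAA parted by any 2 bases, was in 18 of the 29 members with a window (62.1%) and in 3.99% of all genes with one. Of the genes just described, Rtp4 and Isg20 were not among those with a match. For Ifit1, Ifit3 and Gbp2 the matches nearest the 5′ end of the window are shown with 15 flanking bases (GRCm38.p6, RefSeq), capitals marking the match, here as its reverse complement.
Ifit1: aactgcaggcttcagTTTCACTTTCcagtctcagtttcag
Ifit3: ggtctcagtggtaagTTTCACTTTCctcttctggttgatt
Gbp2: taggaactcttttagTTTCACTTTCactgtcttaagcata
They begin at -104, -156 and -59 from the start, within chr19:34640639-34640938, chr19:34583279-34583578 and chr3:142620413-142620712.

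Many complement and MHC class I genes were also highest in replicate 3. Of 16 complement genes, 2 passed the looser limit upward (1.56% of all genes), 12 were highest in that library and the median was 0.94 with it and 0.49 without it, when none passed. C4b, a complement component, was at 34.0, 29.4 and 20.3 CPM against 69.3, 43.1 and 261 CPM. Of 15 MHC class I genes all had a log2 fold change above 0, as did 55.1% of all genes, 2 passed upward (1.56%) and 11 were highest in replicate 3. Their median was 0.59, and 0.39 with no member past the limit without that library. Without Control_1d replicate 3 the median was 1.15 and 6 members passed upward. Without both Control_1d replicate 1 and IRR_1d replicate 3 it was 0.16. Psmb9, a subunit of the immunoproteasome, was at 0.0627, 3.52 and 9.40 CPM against 12.6, 10.5 and 14.3 CPM. Of 28 matrix genes of the interstitium, 24 were highest in replicate 3, and the median of the 28 was 0.67 with it and -0.05 without it. Eln (elastin) was at 23.8, 80.0 and 57.9 CPM in the controls, at 63.3 and 48.2 CPM in IRR_1d replicates 1 and 2, and at 405 CPM in replicate 3. Its difference changed sign, to -0.30, without Control_1d replicate 1 and IRR_1d replicate 3.

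Genes of resident macrophages lay on both sides. Of 18, 15 had a log2 fold change above 0, 3 passed the looser limit upward (Gas6, Siglec1 and Lyve1) and 1 downward (Cx3cr1), against 1.56% and 0.674% of all genes, and the median was 0.43 with all libraries and 0.36 without IRR_1d replicate 3. Of 16 genes of monocytes and inflammatory macrophages, 10 were above 0, 1 passed upward (1.56%) and none downward (0.674%), and the median was 0.77, or 0.06 without IRR_1d replicate 3. Siglec1, the sialic acid receptor CD169, was at 8.02, 7.65 and 13.3 CPM against 44.1, 30.6 and 62.2 CPM (log2 2.24, SE 0.559, edgeR adjusted p = 0.741). Lyve1, a hyaluronan receptor of resident macrophages and of lymphatic endothelium, was at 28.8, 38.5 and 30.4 CPM against 94.1, 74.8 and 96.3 CPM. Cx3cr1, the fractalkine receptor of monocytes and monocyte-derived macrophages, was at 9.03, 6.75 and 14.5 CPM against 2.13, 2.75 and 3.57 CPM (log2 -1.84, SE 0.556). All 3 genes stood apart between the groups, the first pair upward and Cx3cr1 downward. Adgre4, an adhesion receptor of macrophages and dendritic cells, was likewise lower, at 10.6, 3.73 and 2.54 CPM against 0.967, 0.601 and 1.78 CPM.

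MHC class II genes, with which dendritic cells, macrophages and B cells present peptides to CD4 T cells, were lower in IRR_1d. All 10 tested members had a log2 fold change below 0, 5 passed the looser limit downward against 0.674% of all genes, and 6 lay wholly below the controls against 4.14% of all genes. The median was -1.22, and single libraries moved it from -1.42 without IRR_1d replicate 3 to -0.86 without Control_1d replicate 3, when 1 member was above 0. H2-Eb1, a class II beta chain, was at 61.7, 38.1 and 59.9 CPM in Control_1d and at 22, 15 and 22.1 CPM in IRR_1d (2.70-fold lower, log2 -1.43, SE 0.295, edgeR adjusted p = 0.365). H2-Aa, an alpha chain, was at 77.7, 46.1 and 60.4 CPM against 24.7, 20.5 and 26.6 CPM. H2-Ab1, its beta chain, was at 30.0, 25.9 and 48.1 CPM against 16.8, 12.4 and 15.6 CPM. In each the irradiated hearts were close together and below every control. Cd74, the invariant chain that guides class II molecules to the endosome, was at 168, 153 and 184 CPM against 69.1, 58.4 and 88.5 CPM. Ciita, their master transcriptional activator, was at 3.32, 2.32 and 3.24 CPM against 1.80, 0.858 and 1.92 CPM.

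B cell genes mostly had lower values too, but more unevenly. Their summed level was 326, 67.2 and 84.2 CPM in the controls against 57.2, 77.8 and 89.9 CPM in IRR_1d. Apart from Control_1d replicate 1 these sums overlapped. Of 15, 3 passed the looser limit downward (0.674% of all genes), and the median of -2.09 became -1.20 without Control_1d replicate 1, when 1 member passed, and -0.68 without Control_1d replicate 3, when 3 passed. Ms4a1 (CD20) was at 16.1 CPM in Control_1d replicate 1 and at 0.906 and 1.77 CPM in the other controls, against 0, 0.601 and 0.0661 CPM in IRR_1d. Ighd, the heavy chain of IgD on naive B cells, was at 12.4, 1.41 and 2.39 CPM against 0.193, 0.601 and 0.396 CPM. Both stood apart, with the first control far above the rest. Of 16 T and NK cell genes, 11 were at 0 in Control_1d replicate 1 and none passed the looser limit.

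Genes of dividing cells were lower as a list. Of 34 genes of the cell cycle and DNA replication, 31 had a log2 fold change below 0, 3 passed the looser limit downward (0.674% of all genes), 10 lay wholly below the controls (4.14%) and 1 above (6.52%). The median was -1.37, and single libraries moved it from -1.62 without Control_1d replicate 1 to -1.04 without Control_1d replicate 3, when 7 members were above 0 and 1 passed. None passed without Control_1d replicate 2, IRR_1d replicate 1 or IRR_1d replicate 2. Mki67, the proliferation marker, was at 9.09, 10.5 and 20 CPM in Control_1d and at 1.42, 1.29 and 1.72 CPM in IRR_1d (log2 -3.15, SE 1.40). Top2a, the topoisomerase that untangles replicated chromosomes, was at 7.21, 10.9 and 10.8 CPM against 0.838, 1.89 and 0.991 CPM (log2 -2.97, SE 1.40). Prc1, which bundles the midzone of the spindle, was at 3.07, 4.83 and 5.16 CPM against 0.967, 0.858 and 0.793 CPM. The irradiated hearts formed a tight low group in all 3 genes, and each had an edgeR adjusted p of 1. Mki67 and Top2a were called lower by DESeq2 on the 6 libraries (adjusted p = 8.37e-06 and 0.000199) and by edgeR without Control_6w replicate 3 and IRR_6w replicate 1 (adjusted p = 0.0295 and 0.0447). By edgeR on the 6 libraries alone, by DESeq2 on all 14 and by limma-voom with or without library weights, no member of the list was called.

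Erythroid genes had lower values in IRR_1d without a call by edgeR. All 11 tested members had a log2 fold change below 0, with a median of -1.83. Of these, 3 passed the looser limit downward (0.674% of all genes) and 5 lay wholly below the controls (4.14%). Without Control_1d replicate 3, 3 members were above 0, 1 passed downward and the median was -1.19. Their summed level was 5310, 3220 and 34400 CPM in the controls against 6280, 4040 and 10400 CPM, so the higher control mean rests on that library. Slc4a1, the anion exchanger band 3, was at 11, 8.56 and 26.3 CPM against 1.55, 1.03 and 4.49 CPM (6.44-fold lower, log2 -2.69, SE 0.959). Its groups stood apart. The beta globin Hbb-bs overlapped, with 1810, 1230 and 14500 CPM against 2950, 1950 and 4880 CPM (log2 -0.84, SE 1.03). Reads of the near-identical globin copies may have been divided between them.

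**Figure D4:**
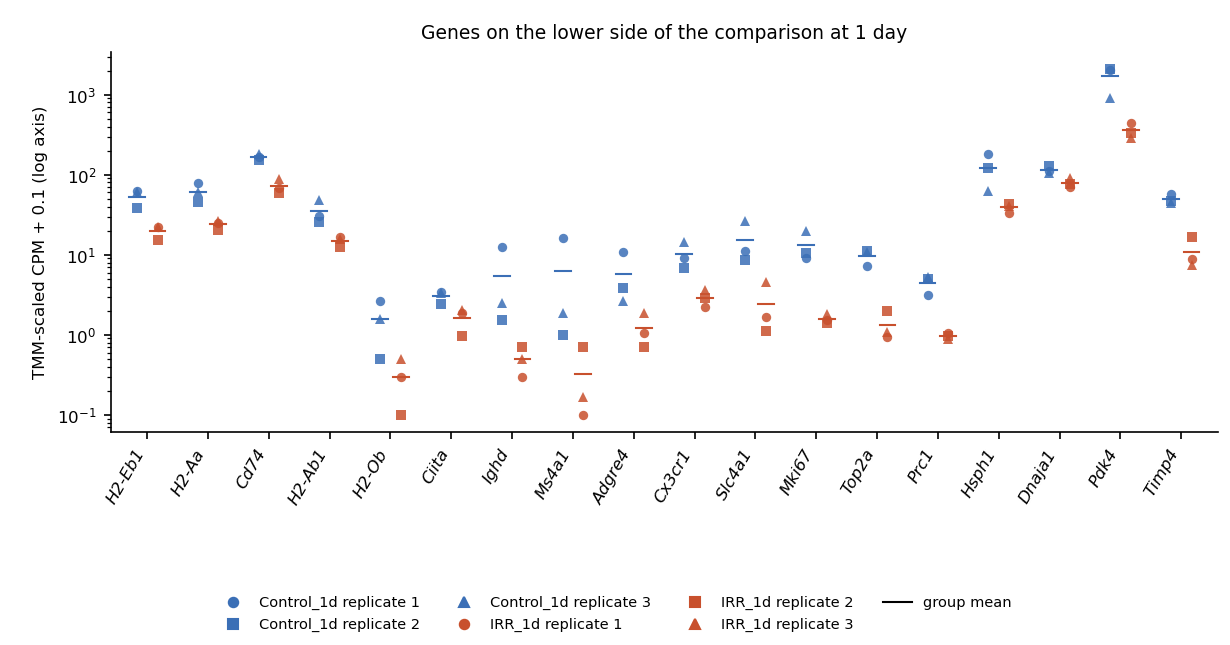
TMM-scaled CPM plus 0.1 (log y axis) of 18 genes of the lower side in each library; blue marks are Control_1d, red marks IRR_1d, shapes give the replicate and short lines the group means. The irradiated hearts lie below all controls in each gene plotted, by 2.70-fold for H2-Eb1 and 6.44-fold for Slc4a1, and Control_1d replicate 1 is far above the other controls in Ighd and Ms4a1.

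Pdk4, the kinase that shuts pyruvate out of the citric acid cycle and that fasting and glucocorticoids induce, had the smallest p of all lower genes. It was at 2050, 2100 and 922 CPM in Control_1d and at 445, 335 and 291 CPM in IRR_1d (4.74-fold lower, log2 -2.24, SE 0.428, edgeR adjusted p = 0.261). The groups did not overlap, and leaving out single libraries gave -2.51 to -2.03. Among 24 targets of glucocorticoids and FOXO factors, Sgk1 was also lower, at 272, 181 and 134 CPM against 72.4, 94.2 and 62.0 CPM, while the median was -0.17. Of the 24, 2 passed the looser limit downward and 1 upward (0.674% and 1.56% of all genes). Another view is by overlap, with 5 wholly below the controls and 3 wholly above (4.14% and 6.52%). Of 32 genes of fatty acid uptake and oxidation, Pdk4 included, 23 were below 0, 3 lay wholly below the controls (4.14% of all genes) and Pdk4 alone passed the looser limit, with a median of -0.18 and of -0.02 without IRR_1d replicate 3. Timp4, a metalloproteinase inhibitor typical of the heart, was at 57.7, 47.5 and 44.4 CPM against 8.83, 16.5 and 7.33 CPM (log2 -2.20, SE 0.605, edgeR adjusted p = 0.998). The orphan nuclear receptor Nr4a3, an immediate early gene, was at 9.28, 14.4 and 5.93 CPM against 1.61, 2.23 and 5.15 CPM. Arhgap18, a GTPase-activating protein, was at 98.4, 66.9 and 63.3 CPM against 39.8, 55.6 and 32.8 CPM.

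Heat shock chaperones, which refold proteins under HSF1, lay slightly lower. Of 22, 7 lay wholly below the controls (4.14% of all genes) and none above, 1 passed the looser limit downward (0.674%) and the median was -0.36, with -0.29 without IRR_1d replicate 3. Hsph1 (HSP105) was at 182, 122 and 62.5 CPM against 32.9, 43.5 and 40.5 CPM (3.14-fold lower, log2 -1.65, SE 0.519). Dnaja1, a co-chaperone of HSP70, was at 112, 129 and 106 CPM against 69.9, 77.6 and 90.5 CPM, and Hspa8 at 2030, 1700 and 1340 CPM against 1200, 1200 and 1130 CPM. The processed copy Hspd1-ps3 was at 32.3, 34.8 and 11 CPM against 7.67, 7.98 and 9.05 CPM, and its reads may come from its parent Hspd1. The heat shock element, read as GAANNTTC, was in 10 of the 17 members with a window (58.8%) and in 9.04% of all genes with one. It is shown for Dnaja1, at -124 within chr4:40722218-40722517, and Hspa1a, at -104 within chr17:34972107-34972406 on the minus strand.
Dnaja1: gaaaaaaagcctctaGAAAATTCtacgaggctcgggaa
Hspa1a: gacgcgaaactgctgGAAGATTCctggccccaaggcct
Hspa1a was at 15.2, 14.5 and 16.3 CPM in the controls and at 3.80, 3.86 and 14.3 CPM in IRR_1d, where replicate 3 was near the controls.

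Of 19 genes of the circadian clock, 4 stood apart, all upward (6.52% of all genes), and 2 passed the looser limit upward (1.56%). Per2, a repressor of the clock, was at 2.82, 8.26 and 9.86 CPM against 22.8, 24.2 and 17.2 CPM (log2 1.62, SE 0.530). Per3, of the same family, was at 21.3, 15.5 and 19.0 CPM against 37.7, 42.1 and 41.1 CPM. Tef, a clock output factor of the PAR bZIP family, was at 96.7, 103 and 117 CPM against 204, 201 and 203 CPM. Hlf, of the same family as Tef, was at 23.5, 29.4 and 38.4 CPM against 45.6, 50.5 and 48.4 CPM. Clock genes swing over the day, and with the hour of collection not given, an effect of the dose and a difference in hour cannot be told apart. The E-box CACGTG was in 5 of the 16 members with a window (31.2%) and in 8.09% of all genes with one. Of the genes just described, Per2, Per3 and Hlf were not among those with a match. Tef held the E-box at both of the starts shown.
Tef, chr15:81802423-81802722: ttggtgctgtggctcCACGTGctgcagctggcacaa
Tef, chr15:81811164-81811463: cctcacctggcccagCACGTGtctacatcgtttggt

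Genes of the muscle cell itself showed no call. Of 20 sarcomere and Z-disc genes, none passed the looser limit and 5 lay wholly below the controls (4.14% of all genes), with a median of -0.23, of -0.02 without IRR_1d replicate 3 and of 0.10 without Control_1d replicate 3. Ttn, the giant spring protein titin, was at 3270, 3590 and 2650 CPM against 1950, 2540 and 1010 CPM (log2 -0.79, SE 0.558). Of 22 genes of calcium handling and ion channels, none passed, 4 lay wholly below the controls and the median was -0.25. Ryr2, the calcium release channel, was at 1930, 1610 and 1570 CPM against 1130, 1260 and 644 CPM (log2 -0.75, SE 0.518). In both genes the lowest heart was IRR_1d replicate 3. The 33 nuclear genes of the respiratory chain had a median of -0.14 and the 13 mitochondrially encoded genes one of -0.03, with none past the looser limit and no gene wholly above or below. Single libraries turned both medians, the nuclear one from -0.33 without IRR_1d replicate 1 to 0.09 without IRR_1d replicate 3, and the mitochondrial one from -0.46 without Control_1d replicate 1 to 0.71 without Control_1d replicate 2. Mitochondrial reads made up 20.3 to 44.2% of the libraries.

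Of 12 genes that the study named as hubs or stained, and had chosen on these libraries, 4 passed the looser limit upward (1.56% of all genes) and 5 lay wholly above the controls (6.52%), with a median of 1.27 and of 0.56 without IRR_1d replicate 3. Besides Cdkn1a and Ifit3 these included Fat1, a giant cadherin, at 37.1, 35.1 and 42.6 CPM against 86.5, 75.4 and 146 CPM. Slc2a1, the glucose transporter GLUT1, was at 6.52, 9.67 and 10.4 CPM against 14.8, 12.1 and 13.2 CPM (log2 0.59, SE 0.439). Thbs1 was at 54.0, 20.6 and 24.6 CPM against 40.0, 31.1 and 199 CPM and overlapped. The pseudogene Gm12346, also named there but not on this list, was at 6.71, 4.53 and 3.93 CPM against 2.19, 2.83 and 3.9 CPM (log2 -0.77, SE 0.451).

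The change of the effect between 1 day and 6 weeks was tested by an interaction term, and no gene passed an edgeR adjusted p of 0.05 (0%), with 504 at an unadjusted p under 0.05 (3.14%) and 43 at an adjusted p by DESeq2. The fits share no mice between the times. At 6 weeks IRR_6w replicates 3 and 4 had 31.8 and 16.9% of genes at 2 to 5 CPM at 0 counts, and the part of this in the later values was not tested. Dcxr, at log2 2.60 at 1 day, was at 0.28 (SE 0.307) at 6 weeks, where its groups overlapped at 6.23 ± 0.61 CPM and 7.6 ± 2.44 CPM (SD, n = 4 each; unadjusted edgeR p of the change 0.000226, adjusted p = 0.37). Zfp365 was at 3 (SE 0.434) and Eda2r at 3.48 (SE 0.542) at 6 weeks, against 4.73 and 2.93 at 1 day. The p53 list had a median of 0.39 at 6 weeks and 12 of its 35 members wholly above the controls, with 1 below, where 4.08% and 1.64% of all genes were. Pdk4 was at -2.24 at 1 day and 0.28 at 6 weeks (unadjusted edgeR p of the change 0.000399, adjusted p = 0.40). Timp4 was low at both times, at -2.20 and -2.80.

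MHC class II genes lay on opposite sides at the 2 times. H2-Eb1 was lower in every irradiated heart at 1 day and higher in every irradiated heart at 6 weeks, at 77.1 ± 12.8 CPM in Control_6w and 197 ± 45.1 CPM in IRR_6w (SD, n = 4 each). Its change of effect was 2.79 (SE 0.389, edgeR adjusted p = 0.0673), the smallest p of the interaction test. The list had a median of 0.94 at 6 weeks, with 5 of 10 members wholly above the controls and none below, against 4.08% and 1.64% of all genes. Of the 250 genes higher at the looser limit at 1 day, 78 (31.2%) were past it in the same direction at 6 weeks, which is 13.2% of the 591 genes higher there (3.69% of all genes), and 3 were past it in the other direction. Of the 108 lower genes, 6 (5.56%) were also lower at 6 weeks, which is 2.14% of the 280 lower there (1.75% of all genes), and 15 (13.9%) were higher, 2.54% of the 591.

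**Figure D5:**
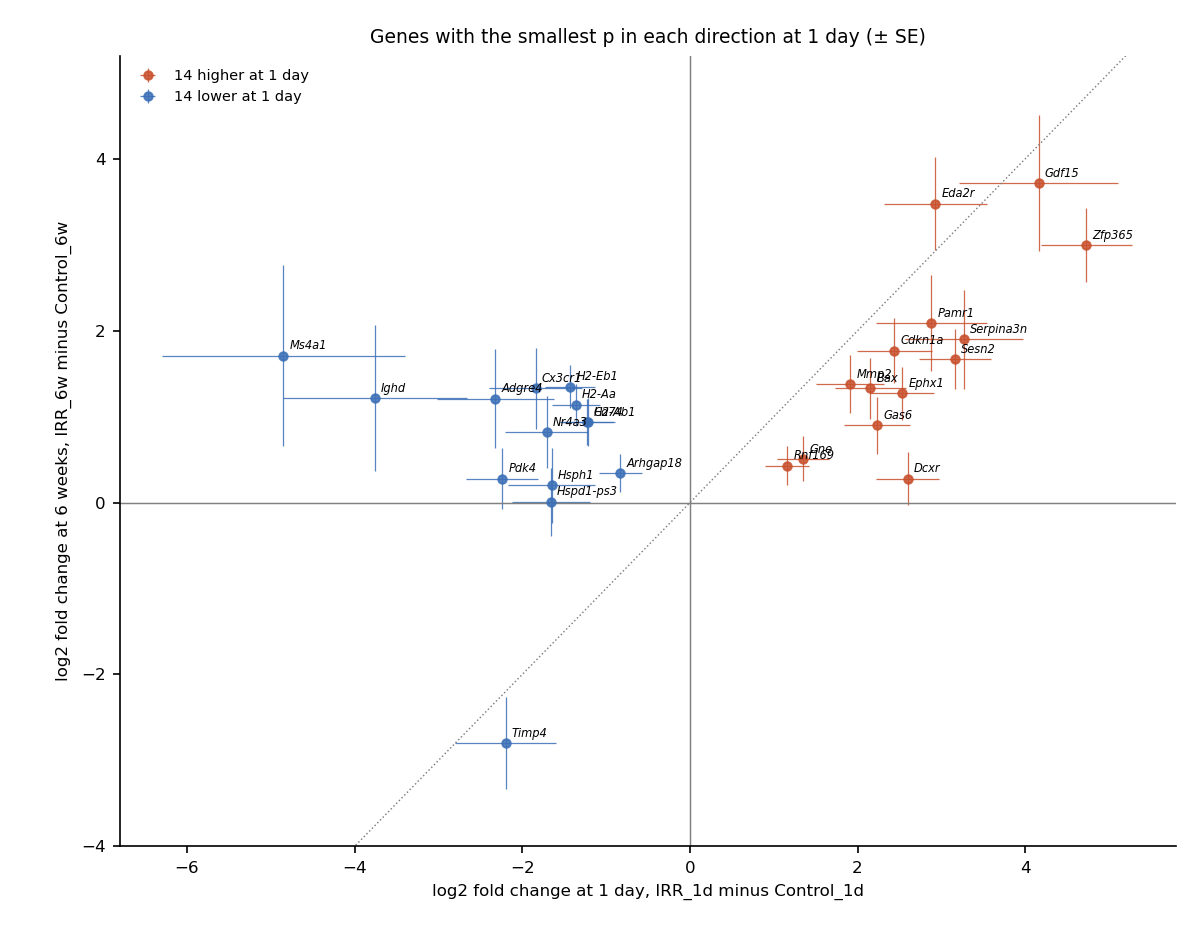
Log2 fold change at 1 day (x axis) and at 6 weeks (y axis), each with its SE as bars, for 28 of the named genes with the smallest p in each direction at 1 day; Celf5, at 0 in all controls of 1 day, is left out, and the dotted line marks equal values. The 14 higher genes stay above 0 at 6 weeks, with Dcxr at 0.28, and of the 14 lower genes plotted only Timp4 is below 0 at 6 weeks, at -2.80.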

How the data were processed

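Total heart RNA was sequenced in 14 libraries, 1 for each mouse of the study's methods. The authors checked reads with FastQC 0.11.8, trimmed them with Trim Galore 0.6.1, aligned them with STAR 2.5.0a to mm10, counted per gene with HTSeq and deposited raw counts for 54532 genes, which the values (whole numbers) fit. Strandedness, counting mode and annotation release are not given in the sources used here, so overlapping or near-identical genes are uncertain. Libraries were grouped by their labels. From the counts, 16034 genes passed filterByExpr and entered edgeR 4.0.16 under R 4.3.3 (TMM, 4 groups, all 14 libraries, quasi-likelihood, Benjamini-Hochberg); CPM are TMM-scaled. 0 counts allow up to 3 at 95% confidence, by counting alone, which is too low in Control_1d replicate 1. An exact test of 3 against 3 cannot go below p = 0.1. DESeq2 1.42.0, limma 3.58.1, other scalings, filters and left-out libraries were alternatives, and the script was tested on simulated data. Named genes were the DEGs, the 15 smallest p in each direction with groups apart, at most 4 members per list, up to 4 leading markers of each tissue, and 12 hub and stained genes of the study; others (among them Gtse1, Ccng1, Pmaip1, Bbc3, Fas, Xpc, Ddb2, Aen, Hspa1a, Hlf and Psmb9) were picked after their values were seen. A few genes that the rule names are not reported here. The 32 response and 14 tissue lists were chosen with earlier results of these data known; 1 listed symbol had no match. Of the 14 tissue lists, lung (at most 3.57 CPM), thymus (5.70 CPM) and germ cell markers (0.198 CPM) were near 0 at 1 day.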

Additional observations from a re-analysis of the deposited data

Results flagged for a closer look

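A difference in the irradiation effect between the 2 times, with every irradiated heart on one side of the controls at 1 day and on the other side at 6 weeks, was met by 5 of the named genes. The change of the log2 fold change, 6 weeks minus 1 day, was 2.79 for H2-Eb1, 2.5 for H2-Aa, 2.17 for Cd74, 2.16 for H2-Ab1 and 3.53 for Adgre4. By edgeR's interaction term the unadjusted p was 4.19e-06, 1.01e-05, 0.000113, 0.000178 and 0.00145, and the adjusted p was 0.0673, 0.0812, 0.343, 0.37 and 0.74, so none passed 0.05. Of these, 4 belong to 1 antigen presentation pathway. Cd74 went from 169 ± 15.7 CPM in Control_1d and 72.0 ± 15.3 CPM in IRR_1d (SD, n = 3 each) to 228 ± 59.9 CPM and 437 ± 124 CPM at 6 weeks (SD, n = 4 each). Control_6w replicate 3 and IRR_6w replicate 1 hold thymus, lung and fat RNA, IRR_6w replicates 3 and 4 have many genes at 0 counts, and the part of either in the later values was not tested. The groups of 1 day hold 3 hearts and were not searched for single outlying values.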

How the results depend on the processing

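The 4 DEGs depended on the test. Higher and lower DEGs numbered 0 and 0 by edgeR on the 6 libraries of 1 day alone, 25 and 5 by DESeq2 on all 14 libraries, 40 and 18 by DESeq2 on 6, 0 and 0 by limma-voom, 35 and 6 by limma-voom with library weights, 2 and 0 with library totals, 8 and 0 without a filter, 0 and 0 without Control_1d replicate 1 and IRR_1d replicate 3, and 11 and 3 without Control_6w replicate 3 and IRR_6w replicate 1. Leaving out each library of 1 day in turn gave 0 to 3 higher and 0 lower DEGs, 87 to 637 higher and 45 to 163 lower genes at the looser limit, and 0 to 3 genes whose effect changed between the times (43 by DESeq2). At the looser limit limma-voom gave 557 higher and 59 lower genes, with library weights 585 and 252, no filter 423 and 234, and genes of at least 5 CPM 59 lower ones. Without Control_1d replicate 1 and IRR_1d replicate 3 there were 64 and 42, and without the 2 libraries of 6 weeks 166 lower. The 637 came without Control_1d replicate 3, the 45 without IRR_1d replicate 1.

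Deviations of same-numbered hearts from their group means had correlations of -0.159, 0.04 and -0.0781. With 3 hearts in each group these cannot decide whether the numbers mark pairs. A replicate block gave 1 DEG on 14 libraries and 0 on 6, with 172 and 177 higher and 72 and 72 lower genes at the looser limit.

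Of the named genes, the log2 fold change switched sign without Control_1d replicate 1 and IRR_1d replicate 3 for Eln (-0.30), Myh11 (-0.06), Acta2 (-0.16), Sod3 (0.00), Col4a6 (-0.03), Pfkfb2 (0.04), Atp5c1 (0.06) and Mthfd2 (-0.04). Leaving out single libraries gave 0.00 to 1.90 for Myh11, -0.04 to 2.06 for Acta2 and -0.40 to 4.58 for Plac8 (each lowest without IRR_1d replicate 3), -2.05 to 0.71 for mt-Atp8 (highest without Control_1d replicate 2), -3.59 to 0.29 for Gapdh (highest without Control_1d replicate 3) and -0.11 to 1.24 for mt-Nd4l (lowest without Control_1d replicate 1). With library weights mt-Nd4l (-0.21) and Cd79b (1.27) changed sign. The causes were not tested. The spread within 3 hearts, the zeros of Control_1d replicate 1 and the tissue in IRR_1d replicate 3 limit what 1 day can show. By 6 fits (edgeR on 14 libraries, DESeq2 on 14 and on 6, limma-voom without and with weights, and edgeR without Control_6w replicate 3 and IRR_6w replicate 1), Zfp365, Sesn2, Dcxr and Ephx1 were called by 5, and Cdkn1a, Gas6, Mmp2, Phlda3, Ces2e and Pqlc3 upward and H2-Eb1 downward by 4.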

Other observations

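Single endothelial genes lay on both sides at 1 day, with 10 of 23 above 0 and 13 below. Their summed level was lower in every irradiated heart, at 7740, 6680 and 5370 CPM in Control_1d against 4120, 5260 and 4010 CPM in IRR_1d. Of 23, 1 passed the looser limit upward (1.56% of all genes) and none downward (0.674%), and the median was -0.21. In all, 2 lay wholly above the controls (6.52% of all genes) and 3 wholly below (4.14%). Vwf, the clotting factor of endothelium, was at 107, 71.6 and 157 CPM in Control_1d and at 278, 129 and 411 CPM in IRR_1d, and the VEGF receptor Kdr at 572, 414 and 484 CPM against 249, 334 and 169 CPM (log2 -0.97, SE 0.485). Kdr stood apart downward and Vwf overlapped. Angpt2, which loosens vessels, was at 5.96, 3.93 and 4.85 CPM against 7.48, 6.87 and 11.9 CPM. Col4a1, the main collagen of the basement membrane, was at 477, 719 and 903 CPM against 373, 384 and 436 CPM, wholly below the controls.

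Lcn2 (lipocalin 2), an iron-trapping acute phase protein of neutrophils and stressed tissue, was at 0, 3.73 and 1.39 CPM in the controls and at 11, 18.6 and 95.3 CPM in IRR_1d (log2 4.64, SE 1.18, edgeR adjusted p = 0.764). Its values stood apart with and without replicate 3, and leaving out single libraries gave log2 fold changes of 3.13 to 5.92. Neutrophil genes as a list did not share this rise. Of 9 tested, 4 had a log2 fold change above 0 and 5 below, with a median of -0.12. At the looser limit 1 was higher (1.56% of all genes) and none lower (0.674%). The metallothionein gene Mt1 was at 53.7, 97.1 and 98.6 CPM against 133, 179 and 122 CPM. Of 21 chemokine genes, Ccl12, a ligand of CCR2, was at 1.57, 0.101 and 1.69 CPM against 1.80, 6.69 and 5.62 CPM, and Cxcl12 at 328, 342 and 402 CPM against 221, 293 and 170 CPM. The list had a median of 0.56, and 0.13 without IRR_1d replicate 3.

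Gapdh, a common reference gene, was at 118 CPM in Control_1d replicate 3 and at 3.32 to 6.12 CPM in the other 5 libraries. Its pseudogene copies make its counts uncertain.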
